A study of Mus musculus with 22 samples.

Results

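The smooth muscle contractile genes followed here are ACTA2, ACTG2, MYL9, MYH11, TAGLN, CNN1, TPM2 and CSRP2. They were taken by symbol from 2 tables whose values were read as FPKM (fragments per kilobase of transcript, scaled to library size), and 8 of 8 were found in both tables among 24353 symbols. The tables hold 22 RNA-seq libraries from tumours of EMT6, a mouse mammary carcinoma line, grown from 200000 injected cells in the inguinal mammary fat pads of wild-type BALB/c mice aged 5 to 6 weeks. Each dissociated tumour was split with anti-CD45 beads into a CD45-negative fraction (12 libraries), meant to be rich in tumour cells, and a CD45-positive fraction (10 libraries), meant to be rich in leukocytes.

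The 5 treatments were vehicle, JQ1, JQ1 with anti-PD-L1, JQ1 with paclitaxel, and JQ1 with paclitaxel and anti-PD-L1. JQ1, an inhibitor of BET bromodomain proteins, was given by gavage each day at 50 mg/kg, and paclitaxel, which stabilises microtubules, and the anti-PD-L1 antibody were injected into the peritoneum at 10 mg/kg with 2 injections per week. Every treated group received JQ1, so no group shows paclitaxel or anti-PD-L1 without it. The CD45-negative groups held 2 vehicle, 2 JQ1, 2 JQ1 with anti-PD-L1, 3 JQ1 with paclitaxel and 3 triple-treated libraries, and each CD45-positive group held 2. The sample titles carry a code and a right or left mark, read here as mouse and tumour side although the labels do not spell this out. By these codes 3 groups came from 1 mouse each, those given vehicle, JQ1 alone or JQ1 plus anti-PD-L1, and mouse and treatment cannot be told apart there. P-values that treat the right and left tumour as separate samples measure the spread between tumours, some of them from the same animal.

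In smooth muscle and in cells that take on its programme, such as myofibroblasts, myoepithelial cells and pericytes, force comes from myosin pulling on filaments of the smooth muscle actins. Calponin, transgelin and tropomyosin bind these filaments and regulate or stabilise them. Many of the genes are switched on by serum response factor (SRF) with a coactivator, myocardin or an MKL protein, at CArG boxes, short elements with a run of A or T between CC and GG, and TGF-beta signalling raises many of them in fibroblasts.

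The RefSeq promoter table of build GRCm38.p6 was matched for 4 of the 8 genes, and ACTG2, MYH11, TAGLN and CSRP2 were not matched. The 250 bases before each annotated start are printed 5′ to 3′ on the gene's strand for all 4 genes matched. They are shown because ACTA2, MYL9 and CNN1 were called lower in several CD45-negative comparisons and TPM2 in none of the main fits. The calls of CNN1 carry a reservation given below. Capitals mark CArG boxes, a palindromic element read on both strands, with at most 1 base other than A or T in the core. The windows are chr19:34255374-34255623 on the minus strand for ACTA2, chr2:156775214-156775463 on the plus strand for MYL9, chr9:22099003-22099252 on the plus strand for CNN1 and chr4:43523555-43523804 on the minus strand for TPM2.
ACTA2: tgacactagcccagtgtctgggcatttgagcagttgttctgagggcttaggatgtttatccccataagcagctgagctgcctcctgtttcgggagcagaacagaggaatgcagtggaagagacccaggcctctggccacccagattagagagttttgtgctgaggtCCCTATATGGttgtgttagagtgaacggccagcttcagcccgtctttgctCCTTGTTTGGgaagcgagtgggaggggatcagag
MYL9: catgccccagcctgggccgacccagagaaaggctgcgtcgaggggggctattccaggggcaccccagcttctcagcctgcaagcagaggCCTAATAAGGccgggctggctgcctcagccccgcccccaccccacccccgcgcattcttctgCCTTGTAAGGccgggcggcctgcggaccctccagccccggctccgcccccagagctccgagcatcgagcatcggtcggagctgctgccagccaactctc
CNN1: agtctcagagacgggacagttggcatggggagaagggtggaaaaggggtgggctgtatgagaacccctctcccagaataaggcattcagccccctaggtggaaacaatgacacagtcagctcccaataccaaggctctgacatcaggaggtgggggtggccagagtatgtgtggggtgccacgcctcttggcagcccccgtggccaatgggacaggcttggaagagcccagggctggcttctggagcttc
TPM2: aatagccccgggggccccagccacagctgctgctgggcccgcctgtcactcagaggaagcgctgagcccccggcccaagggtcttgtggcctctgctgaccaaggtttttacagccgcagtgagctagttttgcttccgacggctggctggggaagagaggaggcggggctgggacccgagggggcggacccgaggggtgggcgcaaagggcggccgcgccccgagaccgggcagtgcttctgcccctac
MYL9 held 1 exact CArG box, CCTAATAAGG, from 161 to 152 bases before the start, and 1 with 1 other base in the core, CCTTGTAAGG, from 99 to 90 bases before it. ACTA2 held none that was exact and 2 with 1 other base in the core, CCCTATATGG from 84 to 75 and CCTTGTTTGG from 34 to 25 bases before the start. The windows of CNN1, which was also called lower, and of TPM2, which was not in the main fits, held neither form. Of 32851 promoters of this length, 1.47% held an exact CArG box and 8.59% one with at most 1 other base. ACTA2 also held GCATTCC on the opposite strand, from 146 to 140 bases before the start, which 2.87% of promoters held in either strand. The shorter CATTCC lies within it and was found in 12.6% of promoters. TATAAA, searched on both strands and found in 12.4%, was in none of the 4 windows. These are matches of letters, and no binding was measured.

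Each column of the tables summed to between 296682 and 370513 FPKM. Depth could not be read as a count, but the steps between low values put the relative depth of the libraries between 0.547 and 1.79 in the CD45-negative and between 0.629 and 1.71 in the CD45-positive table. CD45-negative depth was 1.79 and 1.13 under vehicle, 0.554 and 0.653 under JQ1, and 1.45, 0.547 and 1.58 under JQ1 with paclitaxel. CD45-positive depth was 1.30 and 1.44 under vehicle and 0.905 and 0.629 under JQ1 with paclitaxel. Where 2 compared groups do not overlap in depth, their libraries alone cannot tell depth and treatment apart. PTPRC, the gene of CD45, lay between 1.25 and 8.65 FPKM in CD45-negative and between 38.6 and 73.6 FPKM in CD45-positive libraries. Both fractions therefore held PTPRC, at levels that did not overlap. Genes were compared on log2(FPKM + 1) with limma, 1 fit per fraction, and a gene was called at a Benjamini-Hochberg adjusted p under 0.05 over all genes tested, 10780 in the CD45-negative and 10340 in the CD45-positive table. The added 1 understates the change of genes near or below 1 FPKM. The fractions were never tested against each other, since their tables were deposited separately.

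In CD45-negative vehicle tumours the actin ACTA2 stood highest, at 254 ± 5.3 FPKM (mean ± SD, n = 2). It was followed by MYL9 at 88.4 ± 5.02, TPM2 at 63.9 ± 5.09, CSRP2 at 11.6 ± 1.41, ACTG2 at 3.09 ± 0.395, CNN1 at 2.37 ± 0.882 and TAGLN at 1.34 ± 0.105 FPKM, while MYH11 was listed at 0 in both libraries. FPKM is per length, so these levels can be ordered. Only the ranges of ACTG2 and CNN1 overlapped among neighbours in the order. Under JQ1 with paclitaxel the order tightened, with ACTA2 (60.8 to 89.0 FPKM) overlapping TPM2 (63.5 to 72.9) and MYL9 (7.48 to 14.7) overlapping CSRP2 (7.88 to 14.1). The non-muscle actins stood far above the smooth muscle ones, ACTB from 1930 to 3540 and ACTG1 from 505 to 870 FPKM over the 12 libraries.

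**Figure D1:**
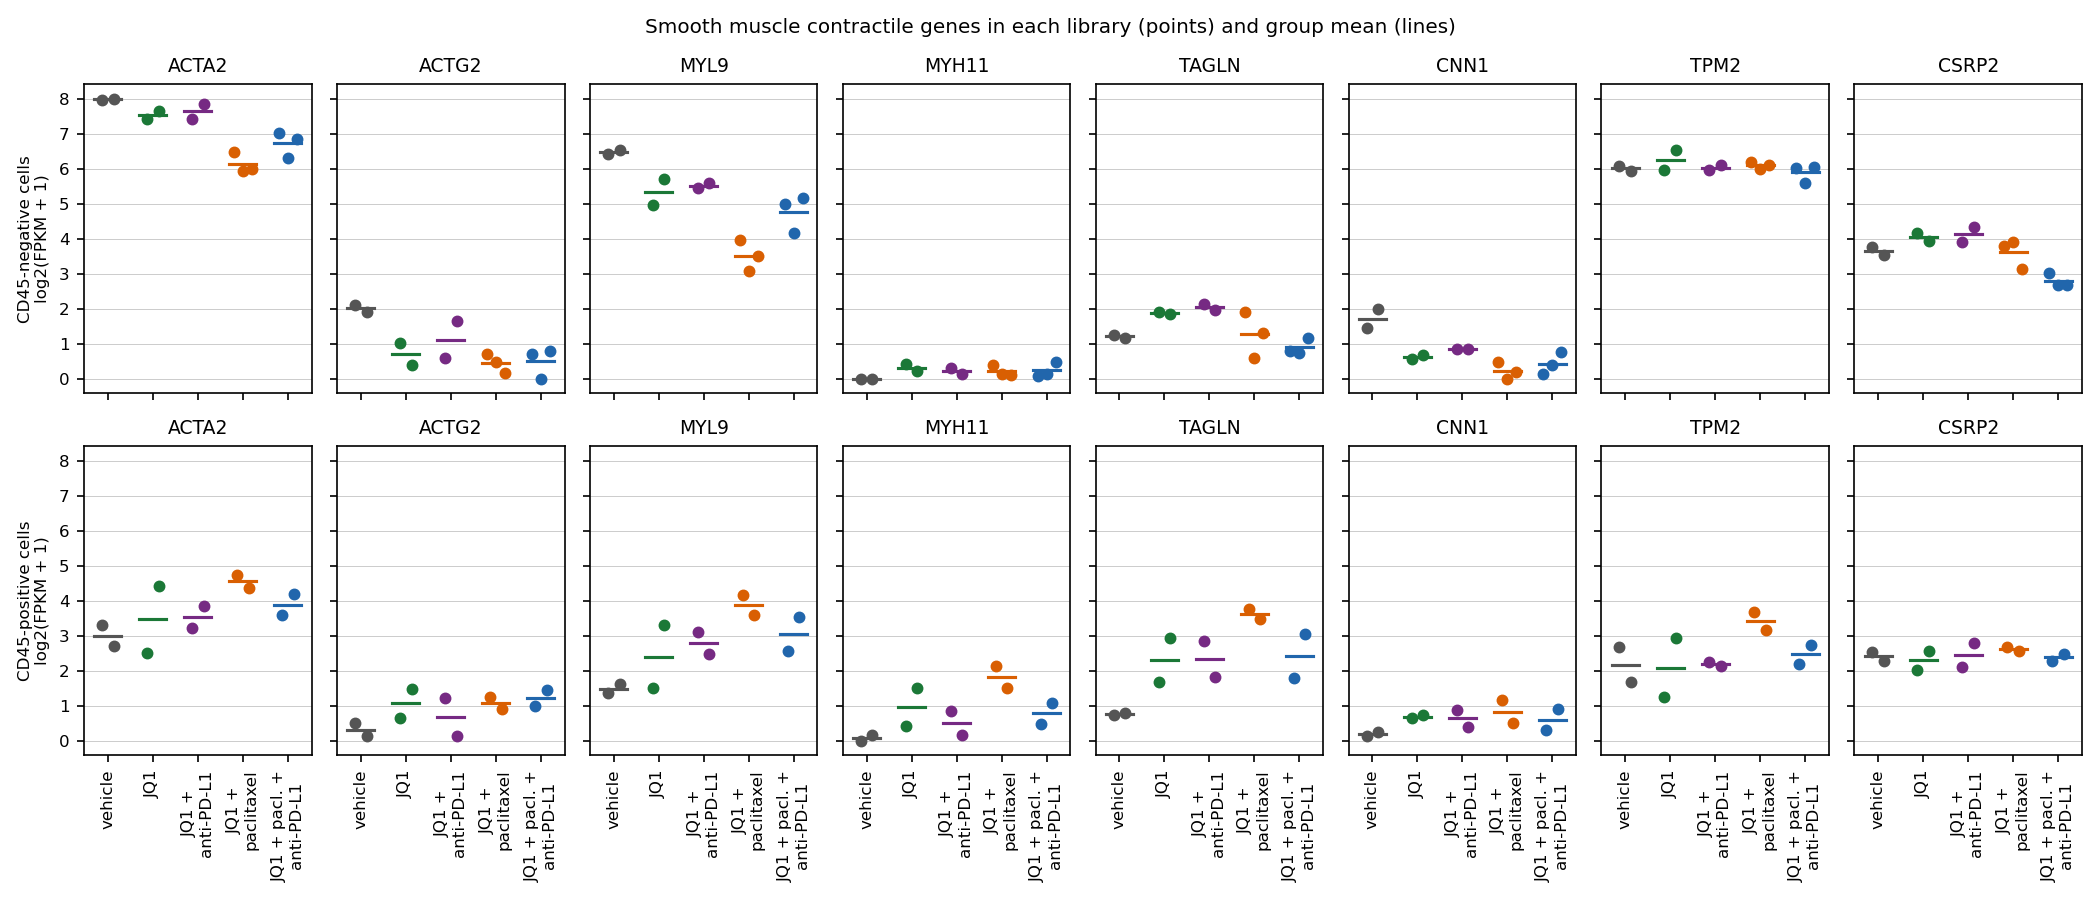
Each panel plots 1 gene on the log2(FPKM + 1) scale, with points for libraries and lines for group means of the 5 treatments, CD45-negative above and CD45-positive below. ACTA2 and MYL9 are highest in CD45-negative vehicle libraries and lowest under JQ1 with paclitaxel there, while TAGLN, MYL9 and MYH11 are highest under JQ1 with paclitaxel in the CD45-positive libraries.

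ACTA2 encodes the alpha actin of vascular smooth muscle and myofibroblasts. In CD45-negative libraries it measured 250 and 257 FPKM under vehicle, 171 and 201 under JQ1, and 173 and 229 under JQ1 with anti-PD-L1. It measured 89.0, 60.8 and 62.7 FPKM under JQ1 with paclitaxel and 130, 79.2 and 114 under all 3 drugs. Every treated library lay below both vehicle libraries, and all 6 with paclitaxel lay below the 4 treated ones without it. ACTA2 fell by 1.85 log2 units under JQ1 with paclitaxel (SE 0.22, limma adjusted p = 0.000316), a ratio of means of 3.58-fold, and by 1.26 under the triple treatment (SE 0.22, adjusted p = 0.0291). Its differences under JQ1 alone (-0.45, SE 0.25, adjusted p = 0.226) and JQ1 with anti-PD-L1 (-0.35, SE 0.25, adjusted p = 0.563) were not called. In bulk RNA, fewer cells that express a gene and less of its RNA per cell cannot be told apart.

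MYL9, a regulatory light chain of smooth muscle and non-muscle myosin, was lower in all 4 comparisons with vehicle and called in 3 of them. It measured 84.9 and 92.0 FPKM under vehicle, 30.3 and 51.5 under JQ1, and 42.6 and 47.8 under JQ1 with anti-PD-L1. It measured 14.7, 7.48 and 10.4 FPKM under JQ1 with paclitaxel and 30.9, 17.1 and 34.9 under all 3 drugs. All 10 treated libraries lay below both vehicle libraries, with the 3 of JQ1 and paclitaxel below all others. MYL9 fell by 2.96 log2 units under JQ1 with paclitaxel (SE 0.31, limma adjusted p = 0.000144), 8.14-fold in means, by 1.70 under the triple treatment (SE 0.31, adjusted p = 0.0291) and by 1.14 under JQ1 alone (SE 0.34, adjusted p = 0.0399). Under JQ1 with anti-PD-L1 the difference was -0.95 (SE 0.34, adjusted p = 0.218).

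ACTG2, the gamma actin of visceral smooth muscle, was far lower. It measured 3.37 and 2.81 FPKM under vehicle, 1.05 and 0.335 under JQ1, and 0.524 and 2.15 under JQ1 with anti-PD-L1. It measured 0.652, 0.399 and 0.138 FPKM under JQ1 with paclitaxel, and 0.645 and 0.754 with 1 library listed at 0 under all 3 drugs. Both vehicle libraries lay above all treated ones. ACTG2 fell by 1.30 log2 units under JQ1 (SE 0.36, limma adjusted p = 0.0317), by 1.57 under JQ1 with paclitaxel (SE 0.33, adjusted p = 0.0076) and by 1.52 under the triple treatment (SE 0.33, adjusted p = 0.0459).

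CNN1, calponin, a thin-filament protein that restrains the myosin ATPase, measured 1.75 and 2.99 FPKM under vehicle and between 0 and 0.829 FPKM in the 10 treated libraries. It entered the test only through the 2 vehicle libraries, the only ones at 1 FPKM or more, so a lower value after treatment was built into its selection and its calls support nothing further. CNN1 fell by 1.08 log2 units under JQ1 (SE 0.26, limma adjusted p = 0.0172), by 1.5 under JQ1 with paclitaxel (SE 0.24, adjusted p = 0.00168) and by 1.28 under the triple treatment (SE 0.24, adjusted p = 0.0296).

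TAGLN, transgelin or SM22-alpha, an actin-bundling protein, had a different pattern. It measured 1.42 and 1.27 FPKM under vehicle, 2.77 and 2.62 under JQ1, and 3.44 and 2.91 under JQ1 with anti-PD-L1. It measured 2.76, 0.539 and 1.49 FPKM under JQ1 with paclitaxel and 0.746, 0.701 and 1.29 under all 3 drugs. The 4 treated libraries without paclitaxel lay above both vehicle libraries, but no comparison with vehicle was called, the largest difference being 0.83 under JQ1 with anti-PD-L1 (SE 0.32, limma adjusted p = 0.261). TAGLN was thus low beside ACTA2, at 0.492% to 3.11% of its FPKM over the 12 libraries.

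TPM2, beta tropomyosin, lay between 47.7 and 91.9 FPKM in all 12 libraries and its vehicle values, 67.5 and 60.3, overlapped every treated group. Its difference from vehicle ran from -0.11 (triple treatment, SE 0.19, limma adjusted p = 0.778) to 0.24 log2 units (JQ1, SE 0.20, adjusted p = 0.445). TPM2 was called only with anti-PD-L1 added under quantile normalisation (-0.33, adjusted p = 0.0348). CSRP2, a LIM-domain protein of smooth muscle, measured 12.6 and 10.6 FPKM under vehicle, 17.1 and 14.3 under JQ1, and 14.2 and 19.4 under JQ1 with anti-PD-L1. It measured 13.1, 14.1 and 7.88 FPKM under JQ1 with paclitaxel and 7.19, 5.47 and 5.47 under all 3 drugs. The triple-treated libraries were the lowest, with a difference from vehicle of -0.85 that was not called (SE 0.23, adjusted p = 0.078). MYH11, the smooth muscle myosin heavy chain, stayed under 1 FPKM throughout, was listed at 0 in both vehicle libraries, reached at most 0.423 FPKM and was not tested.

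Against vehicle, then, 3 of the 8 genes were called lower in CD45-negative cells under JQ1 (ACTG2, CNN1 and MYL9), beside 9.68% of all genes called lower and 5.09% called higher. Under JQ1 with paclitaxel 4 were lower (ACTA2, ACTG2, CNN1 and MYL9), beside 12.3% lower and 5.29% higher of all genes. The same 4 were lower under all 3 drugs, beside 1.05% lower and 0.584% higher. JQ1 with anti-PD-L1 gave no call among the 8 genes and 0.25% over all genes, 27 of 10780, while 1554 genes had an unadjusted p under 0.05. When the 4 treated groups were averaged and set against vehicle, the same 4 genes were lower, beside 5.61% lower and 1.75% higher, with MYL9 down by 1.69 (SE 0.26, limma adjusted p = 0.00401) and ACTA2 by 0.98 (SE 0.19, adjusted p = 0.0104). These comparisons share the 2 vehicle libraries. CNN1 is counted in each, with the reservation above.

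Under JQ1 with paclitaxel ACTA2 and MYL9 passed without any 1 library, and ACTG2 failed without vehicle replicate 1 (adjusted p = 0.0632). With 1 value per mouse code the vehicle arm is a single value, as are those of JQ1 and of JQ1 plus anti-PD-L1, so that all spread comes from the paclitaxel groups and the vehicle value is assumed to vary like them. In that fit the adjusted p under JQ1 with paclitaxel was 0.0187 for ACTA2, 0.011 for MYL9 and 0.055 for ACTG2, and no member was called under JQ1 alone, the triple treatment or the mean of the treated groups. Without either vehicle library CNN1 was no longer tested. For JQ1 alone, none of the 8 was called without vehicle replicate 1, vehicle replicate 2 or JQ1 replicate 1, and for the triple treatment none without either vehicle library or without triple-treated replicate 2, and 2 without triple-treated replicate 1. For the mean of the treated groups the count was 1 without vehicle replicate 1 and 0 without vehicle replicate 2.

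**Figure D2:**
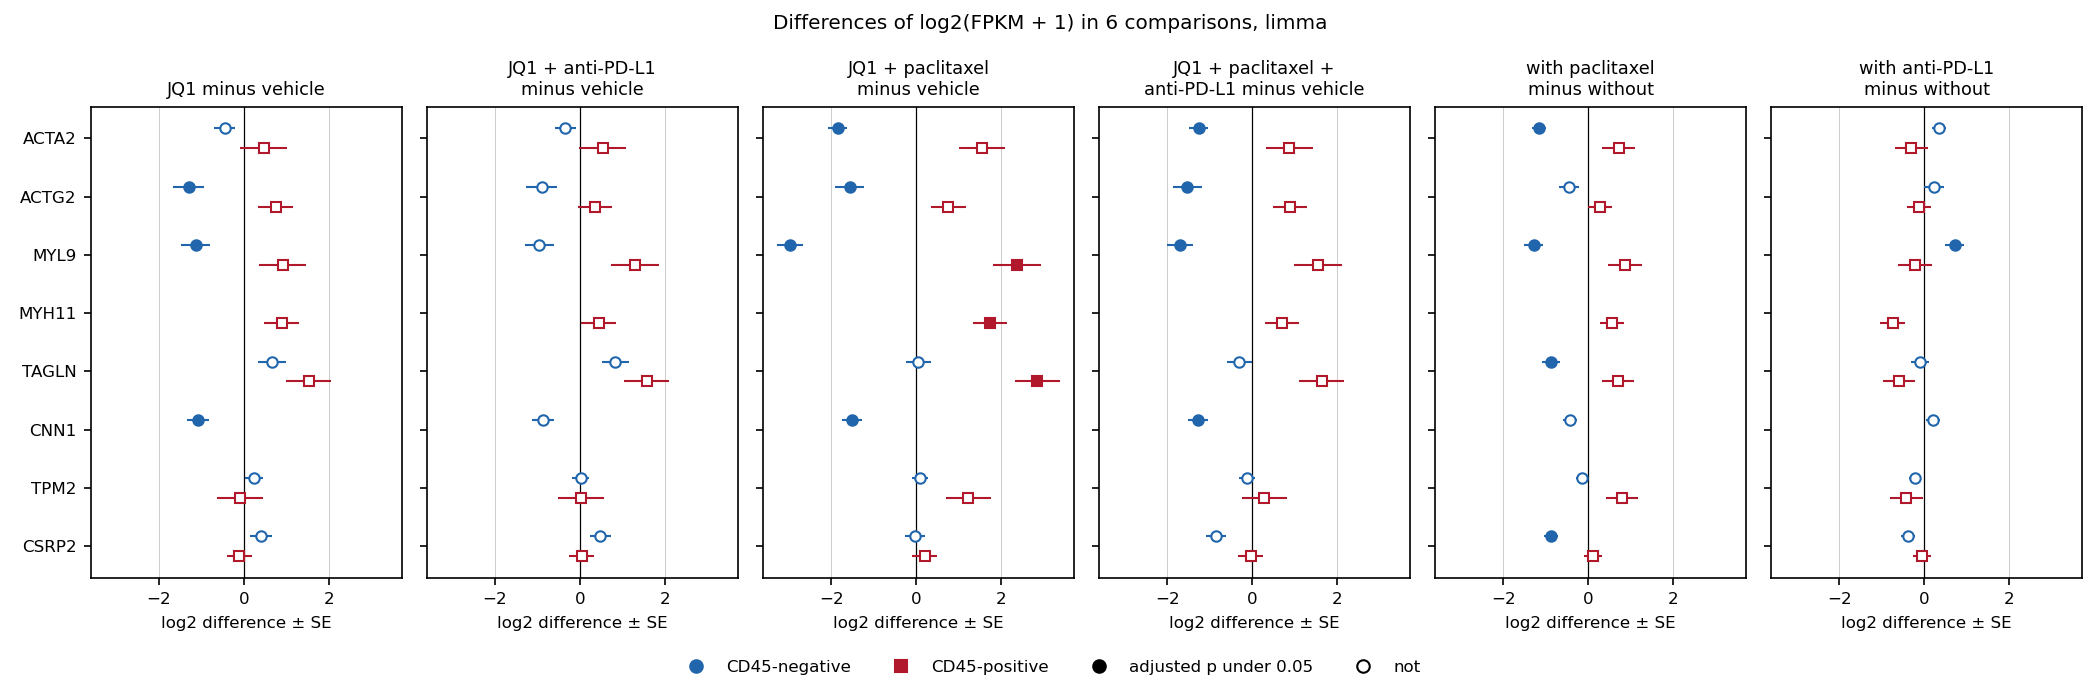
Horizontal axes give the difference of log2(FPKM + 1) with its standard error in 6 comparisons, circles for CD45-negative and squares for CD45-positive cells, filled where the adjusted p was under 0.05. MYL9 under JQ1 with paclitaxel lies at -2.96 in CD45-negative and at 2.38 in CD45-positive cells, and genes that were not tested in a fraction have no point.

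Among the treated groups, the 2 with paclitaxel were set against the 2 without it. In CD45-negative cells 4 of the 8 genes were lower with paclitaxel, beside 1.37% of all genes called lower and 2.19% called higher. ACTA2 fell by 1.15 log2 units (SE 0.16, limma adjusted p = 0.00611), MYL9 by 1.28 (SE 0.22, adjusted p = 0.0121), CSRP2 by 0.88 (SE 0.16, adjusted p = 0.018) and TAGLN by 0.87 (SE 0.21, adjusted p = 0.0406). The call of TAGLN held in 7 of 21 other settings, with an adjusted p of up to 0.354. The libraries with and without paclitaxel did not overlap for ACTA2 and CSRP2 and overlapped for MYL9 and TAGLN. ACTA2 passed without any 1 library. The count was 2 when either JQ1 library or replicate 2 of JQ1 plus anti-PD-L1 was left out, and 1 when replicate 1 of JQ1 plus anti-PD-L1 was. With 1 value per mouse code it was 0, the adjusted p of ACTA2 then being 0.124. In the same comparison 2 of 12 fibroblast genes were higher, DCN (1.05, SE 0.17, adjusted p = 0.011) and PDGFRA (0.77, SE 0.15, adjusted p = 0.0238), and none of the pericyte, myoepithelial, endothelial or pan-leukocyte lists was called. CSRP1, of another list of smooth muscle genes (-0.72, SE 0.135, adjusted p = 0.0185), and ANKRD1, an SRF or YAP target (-0.77, SE 0.15, adjusted p = 0.0212), were lower. The fibroblast list summed to 1860 to 3940 FPKM under JQ1 with paclitaxel and 2300 to 3220 under all 3 drugs, against 2580 to 3340 under JQ1 and 3280 to 3340 under JQ1 with anti-PD-L1. The part of fibroblasts in the members' differences was not tested.

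With anti-PD-L1 against without it, MYL9 rose by 0.72 log2 units (SE 0.22, limma adjusted p = 0.029) and was the 1 gene of the 8 called, beside 14% of all genes called higher and 10.9% lower. The libraries of MYL9 with and without anti-PD-L1 overlapped. The count was 0 without any 1 of 6 libraries (JQ1 replicate 1, JQ1 with paclitaxel replicate 2, either JQ1 with anti-PD-L1 library, and triple-treated replicates 1 and 3) and 2 without triple-treated replicate 2 or JQ1 with paclitaxel replicate 3. ACTA2 differed by 0.35 (SE 0.16, adjusted p = 0.124). Some genes of the marker lists were called higher with anti-PD-L1 too: 3 of 12 pan-leukocyte genes (CD52 at 1.13, LCP1 at 0.99 and CD68 at 0.93), 2 of 7 tested myoepithelial and basal genes (TRP63 at 1.18 and KRT18 at 0.90) and 2 of 12 fibroblast genes (DCN at 0.85 and PDGFRA at 0.49). Of other smooth muscle genes FHL2 (0.75), NEXN (0.595) and SMTN (0.49) were higher. Of paralogues used outside smooth muscle TPM4 (0.499), TAGLN2 (0.455) and CNN2 (0.387) were higher and MYL12B (-0.29) lower. TGFB2 was higher (0.77). These calls and the 1 of 8 members stand beside 14% of all genes called higher, and are not read as results about the lists. The SRF or YAP targets FOS (-1.14), EGR1 (-1.11), CYR61 (-1.09) and AMOTL2 (-0.51) were lower, beside 10.9% of all genes. The pan-leukocyte list summed to 544 to 742 FPKM under JQ1 with anti-PD-L1 and 350 to 606 under all 3 drugs, against 277 to 411 under JQ1 and 219 to 649 under JQ1 with paclitaxel. The myoepithelial and basal list summed to 370 to 500 FPKM under JQ1 with anti-PD-L1 and 533 to 767 under all 3 drugs, against 300 to 359 under JQ1 and 344 to 545 under JQ1 with paclitaxel. Most of each sum was KRT8, at 341 and 449 FPKM under JQ1 with anti-PD-L1 and 584, 478 and 688 under all 3 drugs. These sums therefore follow KRT8 and say little of the other genes on the list. The part of the cells these lists stand for in the difference of MYL9 was not tested. The interaction of paclitaxel and anti-PD-L1 called none of the 8 genes, beside 0.00928% of all genes (1 of 10780, with 771 at an unadjusted p under 0.05), with MYL9 at 1.07 (SE 0.44, adjusted p = 0.656).

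A second set of 20 smooth muscle contractile and scaffold genes held 15 that were tested in CD45-negative cells. Under JQ1 with paclitaxel 4 were lower and none higher, beside 12.3% lower and 5.29% higher of all genes, with a median difference of -0.13 beside -0.07 for all genes. The 4 were HSPB6, a small heat-shock protein (-1.20, SE 0.25, limma adjusted p = 0.00725), NEXN, an actin-binding protein (-1.12, SE 0.25, adjusted p = 0.00969), CSRP1 (-0.87, SE 0.19, adjusted p = 0.00914) and SMTN, smoothelin (-0.72, SE 0.20, adjusted p = 0.0294). Under JQ1 alone 3 were lower, beside 9.68% of all genes called lower and 5.09% called higher. They were FHL2, a LIM-domain protein (-1.46, SE 0.38, limma adjusted p = 0.0251), HSPB6 (-1.16, SE 0.27, adjusted p = 0.0163) and NEXN (-0.88, SE 0.27, adjusted p = 0.0458). VCL, vinculin, was higher (0.49, SE 0.15, limma adjusted p = 0.042). CALD1, caldesmon, lay between 108 and 145 FPKM in all 12 libraries and was called in neither comparison.

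Of 18 paralogues used outside smooth muscle 13 were tested, and under JQ1 with paclitaxel 5 were lower and none higher, beside the same 12.3% and 5.29% of all genes, with a median of -0.13. They were TPM4, a non-muscle tropomyosin (-0.94, SE 0.17, limma adjusted p = 0.00353), CNN2 (-0.89, SE 0.17, adjusted p = 0.00502), CSRP1, which is on both lists, MYL12A, a non-muscle light chain (-0.70, SE 0.19, adjusted p = 0.0261) and TAGLN2 (-0.49, SE 0.15, adjusted p = 0.0403). MYH9, the non-muscle myosin heavy chain, was higher under JQ1 (0.80, SE 0.24, adjusted p = 0.0391) and TPM4 lower (-0.65, SE 0.19, adjusted p = 0.0383).

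The genes that control the programme did not move together. Of 18 SRF, myocardin-family and TGF-beta genes 17 were tested, and under JQ1 with paclitaxel SMAD3 rose by 1.37 (SE 0.24, limma adjusted p = 0.0026) and TGFB2 fell by 1.15 (SE 0.32, adjusted p = 0.028), with a median of 0.21. These stand beside 12.3% of all genes called lower and 5.29% called higher. TGFB2, a TGF-beta ligand, was also the 1 called under JQ1 alone (-1.47, SE 0.35, adjusted p = 0.0167). SRF lay between 5.95 and 11.8 FPKM in the 12 libraries and was not called. MYOCD, myocardin, was at 0 in 11 of 12 libraries, and MKL1 lay between 3.23 and 6.97 FPKM. Of 8 SRF or YAP targets outside the contractile set, CTGF was lower under JQ1 with paclitaxel (-1.01, SE 0.31, adjusted p = 0.0403), with a median over the 8 of 0.11, and AMOTL2 was higher under JQ1 alone (0.68, SE 0.17, adjusted p = 0.0191). CYR61 was lower under the triple treatment (-0.97, SE 0.20, adjusted p = 0.0455).

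Markers of other cell types that can carry these genes were read beside them in CD45-negative cells. LMOD1 and KCNMB1 of the second smooth muscle list, which mark mature smooth muscle, reached at most 0.0321 and 0.0554 FPKM. SMTN, smoothelin, of the same list was well above these, with means of 54 FPKM under vehicle and 33.4 under JQ1 with paclitaxel. Of 9 pericyte markers, 5 stayed under 1 FPKM in all libraries, none was at 0 throughout, and the summed level was 4.3 to 7.52 FPKM under vehicle and 6.8 to 14.1 under JQ1 with paclitaxel, against 421 to 427 and 147 to 194 for the 8 contractile genes. The 12 fibroblast genes summed to 3030 to 3160 FPKM under vehicle and 1860 to 3940 under JQ1 with paclitaxel, and none of the 12 was called in that comparison. Of 11 myoepithelial and basal genes, 7 were tested and 3 were lower under JQ1 with paclitaxel, beside 12.3% of all genes called lower and 5.29% called higher. They were TRP63 (-1.92, SE 0.21, limma adjusted p = 0.000228), KRT14 (-2.00, SE 0.53, adjusted p = 0.022) and ITGB4 (-1.19, SE 0.27, adjusted p = 0.01). This list summed to 513 to 893 FPKM under vehicle and 344 to 545 under JQ1 with paclitaxel. KRT8 made up most of these sums, at 453 and 792 FPKM under vehicle and 346, 324 and 496 under JQ1 with paclitaxel. KRT5 stayed at or under 0.522 FPKM, and OXTR was listed at 0 in all 12 libraries. Under JQ1 alone TRP63, KRT18, ITGB4 and KRT8 of this list were lower, as were the fibroblast genes DCN (-1.35, SE 0.27, adjusted p = 0.00679) and PDGFRA (-1.08, SE 0.24, adjusted p = 0.0113). The part of these cell types in the members' differences was not tested. Skeletal muscle genes summed to at most 13.6 FPKM, endothelial genes to at most 22.8 and adipocyte genes to at most 108. Under JQ1 with paclitaxel FABP4, ENG and MYLPF of these lists were higher and RETN lower. The pan-leukocyte list ran from 219 to 742 FPKM over all 12 libraries, and from 219 to 649 under JQ1 with paclitaxel.

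In CD45-positive cells ACTA2 was lower than in the CD45-negative fraction of the same tumour, in 10 of 10 tumours, and the members had another order. Under vehicle the levels ran from ACTA2 (8.92 and 5.54 FPKM) through CSRP2 (4.83 and 3.88), TPM2 (5.43 and 2.19) and MYL9 (1.57 and 2.09) to TAGLN (0.663 and 0.757), ACTG2 (0.436 and 0.0983), CNN1 (0.104 and 0.187) and MYH11 (0 and 0.124). The ranges of CSRP2 and TPM2 overlapped, as did those of ACTG2 and CNN1 and of CNN1 and MYH11. Under JQ1 with paclitaxel TAGLN stood after ACTA2 and MYL9, with a range that overlapped MYL9 and TPM2.

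TAGLN measured 12.8 and 10.2 FPKM under JQ1 with paclitaxel, 2.19 and 6.61 under JQ1, 6.27 and 2.55 under JQ1 with anti-PD-L1, and 2.47 and 7.26 under all 3 drugs. All 8 treated libraries lay above both vehicle libraries. TAGLN rose by 2.86 log2 units under JQ1 with paclitaxel (SE 0.53, limma adjusted p = 0.0223), 16.1-fold in means. MYL9 measured 17 and 11 FPKM in that group, 1.84 and 8.88 under JQ1, 7.64 and 4.58 under JQ1 with anti-PD-L1, and 4.93 and 10.6 under all 3 drugs. It rose by 2.38 under JQ1 with paclitaxel (SE 0.56, adjusted p = 0.0481), 7.66-fold in means, and 1 JQ1 library lay among the vehicle values. MYH11 measured 3.40 and 1.86 FPKM under JQ1 with paclitaxel, 0.354 and 1.84 under JQ1, 0.827 and 0.133 under JQ1 with anti-PD-L1, and 0.401 and 1.14 under all 3 drugs. It rose by 1.74 under JQ1 with paclitaxel (SE 0.41, adjusted p = 0.0469), from vehicle libraries of which 1 was listed at 0.

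These 3 of the 8 genes were the calls under JQ1 with paclitaxel in CD45-positive cells, beside 1.58% of all genes called higher and 3.26% called lower. ACTA2 measured 26 and 19.8 FPKM there and differed by 1.56 (SE 0.55, limma adjusted p = 0.146), TPM2 measured 11.7 and 7.94 and differed by 1.24 (SE 0.54, adjusted p = 0.227), and ACTG2 measured 1.40 and 0.894 and differed by 0.76 (SE 0.41, adjusted p = 0.318). CSRP2 stayed between 3.11 and 5.95 FPKM in all 10 libraries, and CNN1 reached 1.23 FPKM in 1 library and was not tested. None of the 3 calls held without either vehicle library or either library of JQ1 with paclitaxel, where the adjusted p of TAGLN lay between 0.092 and 0.153. MYL9 and MYH11 were also lost when either library of JQ1 plus anti-PD-L1 was left out, with an adjusted p of MYL9 of 0.0731 without replicate 1. All 3 were lost without a filter, with relative depth as a covariate and with 1 value per mouse code, where 3 of the 5 arms, vehicle among them, are single values; the adjusted p of TAGLN was 0.0571, 0.428 and 0.186. MYL9 was lost with a pseudocount of 0.1 (adjusted p = 0.0513).

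No other comparison called a member in CD45-positive cells. All genes gave 1.04% for JQ1 against vehicle, 0.029% for JQ1 with anti-PD-L1, 0.135% for the triple treatment, 0.822% for the mean of the treated groups, 0.832% for anti-PD-L1 added, 0.0387% for paclitaxel added and 0% for the interaction, where limma called 0 genes and 1070 had an unadjusted p under 0.05. With the 4 treated groups averaged, TAGLN differed by 1.90 (SE 0.42, limma adjusted p = 0.0806), and it passed without triple-treated replicate 1 (adjusted p = 0.045). That comparison called 2 members without JQ1 replicate 1, TAGLN among them (adjusted p = 0.0459). The 2 JQ1 libraries stood apart from each other in the members, with ACTA2 at 4.76 and 20.6 FPKM.

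Genes of vessel-wall and stromal cells were higher in the same 2 CD45-positive libraries of JQ1 with paclitaxel. The counts that follow stand beside 1.58% of all genes called higher and 3.26% called lower in that comparison. Of 9 pericyte markers 8 were tested and 5 were higher, led by MCAM (3.58, SE 0.25, limma adjusted p = 0.000439), RGS5 (2.91, SE 0.29, adjusted p = 0.00212), NDUFA4L2 and KCNJ8. RGS5 went from 0.0321 and 0.13 to 6.83 and 7.42 FPKM. Outside these 2 libraries KCNJ8 reached 1 FPKM only in triple-treated replicate 1 (1.13), and NOTCH3, also among the 5, only in JQ1 replicate 2 (1.38). Neither would have been tested without these 2 libraries, so their selection favoured a higher value. The pericyte list summed to 3.31 to 9.3 FPKM under vehicle and 36.7 to 36.8 under JQ1 with paclitaxel, and no marker was at 0 in all libraries. CSPG4 of this list went the other way, from 2.02 and 7.16 FPKM under vehicle to 1.67 and 0.81 under JQ1 with paclitaxel. Of 8 endothelial genes 6 were called higher apart from CDH5 and TEK, which reached 1 FPKM only in these 2 libraries and so had to differ, led by PECAM1 (2.87, SE 0.26, adjusted p = 0.00137) and CLDN5 (2.77, SE 0.41, adjusted p = 0.0106), then EMCN and ENG, with sums of 4.5 to 8.31 and 52.5 to 76.3 FPKM. Of 12 fibroblast genes 10 were tested and 4 were called higher apart from LUM, which also entered the test only through these 2 libraries, led by SPARC (2.46, SE 0.42, adjusted p = 0.0168) and POSTN (2.43, SE 0.33, adjusted p = 0.00771), then PDGFRB and THY1, with sums of 230 to 368 and 457 to 590 FPKM. The median over the tested pericyte genes was 1.27, beside -0.09 for all genes. Under JQ1 alone, where no member was called, MCAM, PECAM1, EMCN, THY1 and FABP4 were higher.

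Of the second smooth muscle list, 14 of 20 genes were tested in CD45-positive cells and 3 were higher under JQ1 with paclitaxel, beside 1.58% of all genes called higher and 3.26% lower. They were DES, the intermediate filament desmin (2.02, SE 0.30, limma adjusted p = 0.0115), PPP1R14A, an inhibitor of myosin phosphatase (1.89, SE 0.38, adjusted p = 0.0281) and MYLK, the myosin light chain kinase (1.09, SE 0.19, adjusted p = 0.019). MYLK reached 1 FPKM only in these 2 libraries, so its higher value was built into its selection. FABP4, the 1 adipocyte gene tested, which endothelial cells also express, rose by 4.49 (SE 0.39, adjusted p = 0.0011). The pan-leukocyte list summed to 4510 to 4620 FPKM under vehicle and 2950 to 3210 under JQ1 with paclitaxel, and TYROBP fell (-0.74, SE 0.17, adjusted p = 0.0478), while PTPRC measured 38.8 and 53.4 FPKM under vehicle and 38.6 and 40.1 under JQ1 with paclitaxel. TNNI2, a skeletal muscle gene, was lower (-2.36, SE 0.29, adjusted p = 0.0045). None of the 13 tested paralogues was called. Of 14 tested SRF, myocardin-family and TGF-beta genes WWTR1, the YAP paralogue TAZ, rose (1.62, SE 0.33, adjusted p = 0.0319), and none of 8 other SRF or YAP targets and none of 7 tested myoepithelial genes was called. The part of other cell types in the higher CD45-positive values of TAGLN, MYL9 and MYH11 was not tested.

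**Figure D3:**
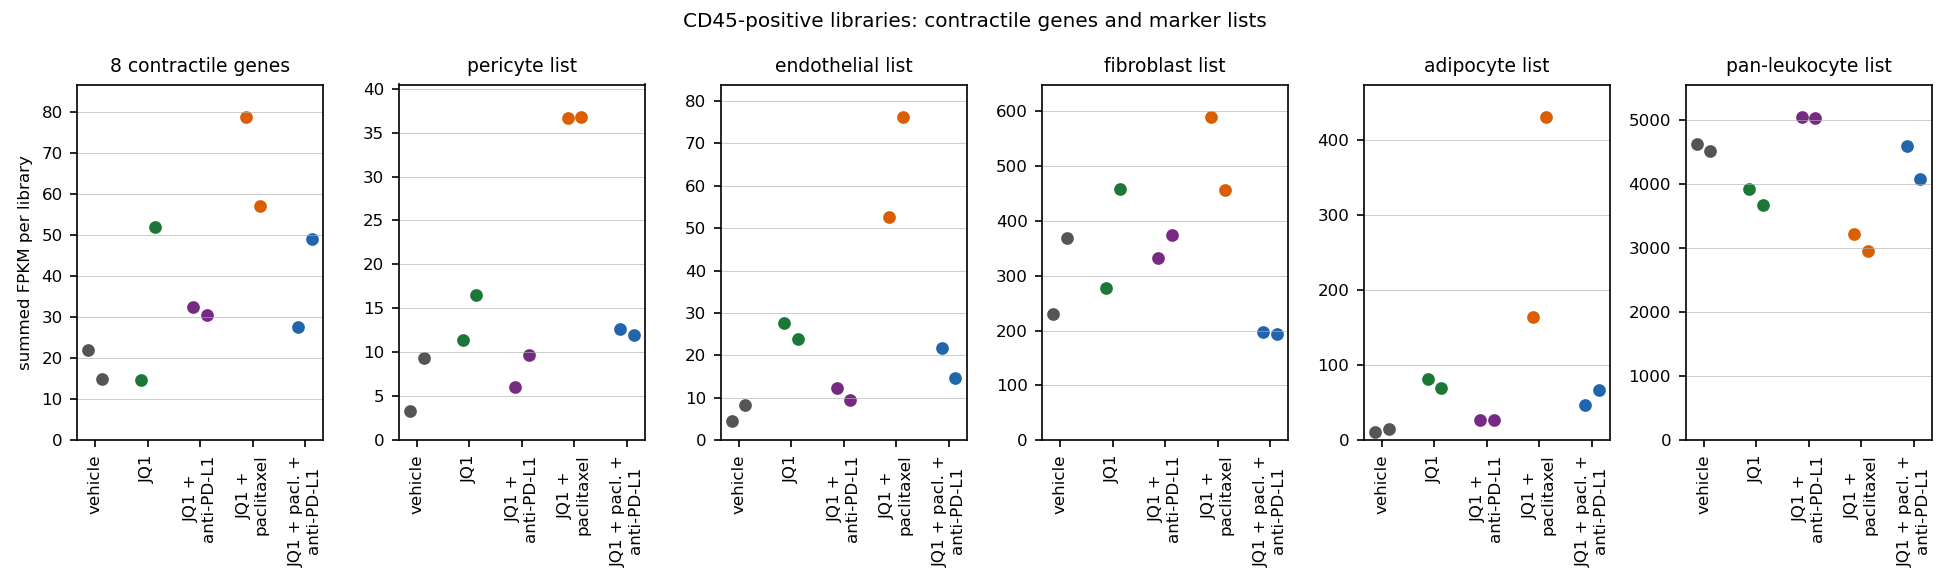
Points give the summed FPKM per CD45-positive library of the 8 contractile genes and of 5 marker lists, by treatment, each panel on its own axis from 0. The 2 libraries of JQ1 with paclitaxel are highest for the contractile genes (57 and 78.9 FPKM), the pericyte and the endothelial list, and lowest for the pan-leukocyte list.

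The mix of contractile transcripts differed between the fractions. TAGLN stood at a median of 1.2% of the ACTA2 level in the 12 CD45-negative libraries (range 0.492% to 3.11%) and at 37.1% in the 10 CD45-positive ones (7.43% to 74.3%). MYH11 stood at a median of 0.146% and at most 0.37% of ACTA2 in CD45-negative libraries, and at a median of 7.04% and at most 13.1% in CD45-positive ones. Its CD45-negative ratio rests on values near the floor, at most 0.423 FPKM, and the lowest ratio was 0% in both fractions. MYL9 stood at 34% and 35.7% of ACTA2 in the CD45-negative vehicle libraries and between 12.3% and 16.6% under JQ1 with paclitaxel, and in CD45-positive libraries at 17.6% and 37.7% under vehicle and 55.6% and 65.5% under JQ1 with paclitaxel. These ratios are taken within a library, so they do not depend on how the tables were scaled. The fractions' ratio ranges did not overlap for TAGLN but overlapped for MYH11 and MYL9.

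**Figure D4:**
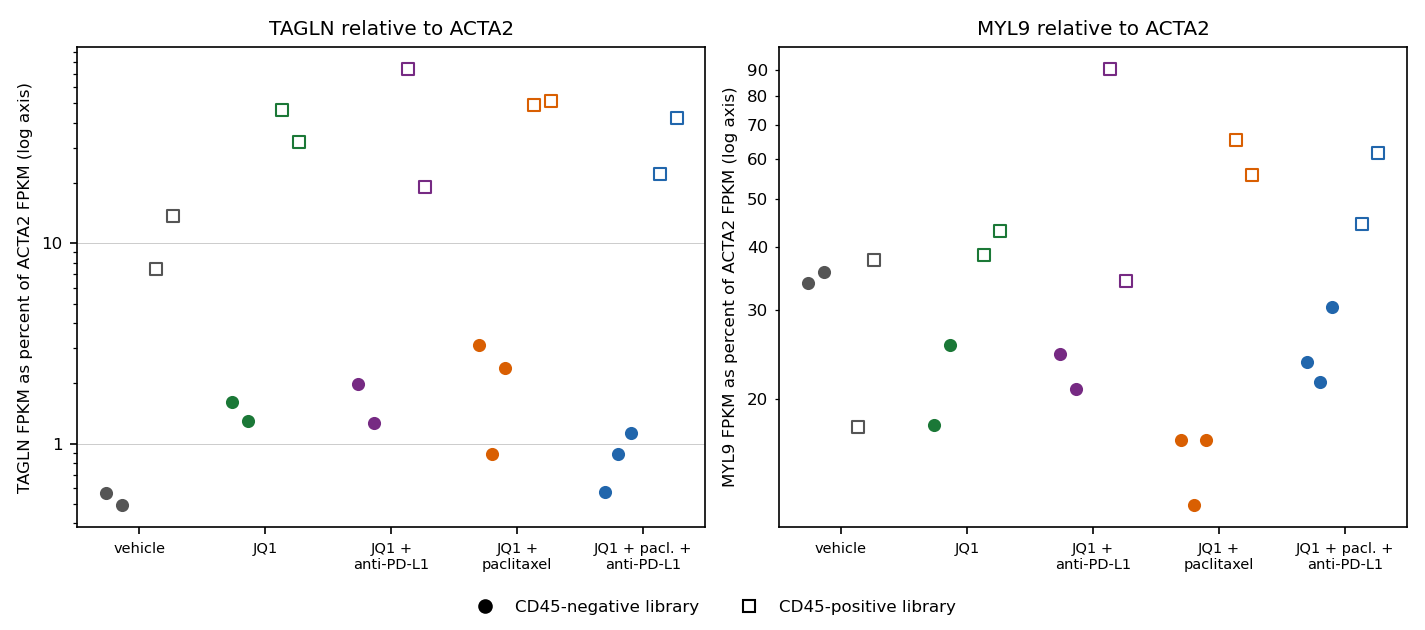
TAGLN (left) and MYL9 (right) FPKM are given as a percent of ACTA2 FPKM in the same library on log axes, with filled circles for CD45-negative and open squares for CD45-positive libraries of each treatment. TAGLN reaches at most 3.11% of ACTA2 in CD45-negative libraries and is at least 7.43% in CD45-positive ones.

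Of 10 tumours with both fractions, ACTA2, TPM2 and CSRP2 were higher in the CD45-negative fraction in 10, MYL9 in 8, while TAGLN was higher in the CD45-positive fraction in 6, ACTG2 in 6, CNN1 in 7 and MYH11 in 9. These tallies count any difference as higher, with no tolerance, and for MYH11 include 1 tumour at 100% of the CD45-negative level and for CNN1 tumours at 102% and 104%. The CD45-positive level of ACTA2 was 3.57% and 2.15% of the CD45-negative one under vehicle and 29.2% and 31.6% under JQ1 with paclitaxel. For MYL9 these shares were 1.85% and 2.27% under vehicle and 115% and 106% under JQ1 with paclitaxel. They set levels from 2 separately normalised tables side by side and were not tested.

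Among 7443 genes of mean log2 level at least 2, the CD45-negative profile closest to the mean of the 7 tested members was that of CSRP1, a LIM-domain relative of CSRP2, at a root mean square difference of 0.122 log2 units over 12 libraries, where a flat line gave 0.471. AURKA (0.201), TPX2 (0.209), FAM64A (0.21), MRAS (0.213) and HMMR (0.213) followed. For ACTA2 alone, with a flat line at 0.723, the closest were PLK1 (0.273), FAM64A (0.279), CCNA2 (0.334), FADS2 (0.338), KIF22 (0.34) and CSRP1 (0.344). AURKA, TPX2, HMMR, PLK1, CCNA2 and KIF22 are known for roles in cell division. In the 10 CD45-positive libraries the closest of 6814 genes to the mean of the 7 members tested there were FTL1 (0.213), ATP7A (0.224), APLP2 (0.233), OAZ2 (0.243), OCEL1 (0.248) and CPT1A (0.25). A flat line gave 0.606 there, and none of these genes is on the marker lists. Profiles within a fraction share its libraries and their treatment groups, and the likeness is a description with no test.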

How the data were processed

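RNA of both cell fractions of the EMT6 tumours was sequenced by the submitters, per the labels' protocols, from low-input SMARTer libraries on 1 Illumina instrument type. The submitters' processing notes name STAR 2.5.1b and mm9; no quantifier is named in the sources used here. The authors deposited 1 table of FPKM per fraction, read as FPKM from its non-integer values although the labels' file description calls them counts. Values were taken as log2(FPKM + 1), a gene was kept where 2 or more libraries of the fraction reached 1 FPKM, and limma 3.58.1 in R 4.3.3 was fitted once per fraction over 5 treatment groups, with a mean-variance trend and 8 comparisons. The fit was tested on simulated data. No gene coordinates are given from mm9; promoter windows are RefSeq's on GRCm38.p6. Replicates were numbered by accession order. The 8 members and the gene lists were chosen with earlier results of these data known. All 8 members are named. Of each other list, called genes were to be named up to 4 by size of change, otherwise the 2 of highest level. Lists with no call are given by counts and sums, and called list genes were not named in every comparison. CALD1, MKL1, MYOCD, LMOD1, KCNMB1, KRT5, OXTR, SRF, TAGLN2, ACTB, ACTG1 and PTPRC were named after their values were seen. Alternatives changed the pseudocount (0.1, 5), the filter (none, 5 FPKM), the scaling, the trend, a depth covariate, the samples entering the fit, 1 value per mouse code and each library left out.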

Additional observations from a re-analysis of the deposited data

Results flagged for a closer look

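In 12 cases every treated CD45-negative library lay below vehicle and every treated CD45-positive library above it for the same gene and treatment. These cases were sought over the 8 contractile genes and the 4 treatments. The share of all genes with the same pattern was not counted, so whether 12 cases are unusual was not tested. The difference between the fractions was not tested either, since the tables were normalised separately. The values are the CD45-positive minus the CD45-negative difference from vehicle on the log2(FPKM + 1) scale. For MYL9 it was 5.34 under JQ1 with paclitaxel (2.38 against -2.96), 3.26 under the triple treatment and 2.25 under JQ1 with anti-PD-L1. For ACTA2 it was 3.4 under JQ1 with paclitaxel (1.56 against -1.85) and 2.14 under the triple treatment. For ACTG2 it was 2.05 under JQ1, 2.33 under JQ1 with paclitaxel and 2.42 under the triple treatment. For CNN1, which stayed near or under 1 FPKM in most libraries, it was 1.58 under JQ1, 1.32 under JQ1 with anti-PD-L1, 2.14 under JQ1 with paclitaxel and 1.7 under the triple treatment. Of these CD45-positive differences only that of MYL9 under JQ1 with paclitaxel passed the adjusted threshold, and CNN1 was not tested in that fraction. Groups held 2 or 3 libraries, too few for a check of single outlying values.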

How the results depend on the processing

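No alternative run turned the direction of a called gene. In CD45-negative cells, JQ1 against vehicle gave 3 called members, 1 with a pseudocount of 0.1, without a filter or with a filter at 5 FPKM, 0 with the depth covariate or 1 value per mouse code, and 0 to 3 with 1 library left out. JQ1 with anti-PD-L1 gave 0 and 1 with only the groups compared (MYL9). JQ1 with paclitaxel gave 4, 2 with the filter at 5 FPKM, and 2 to 4 with 1 library left out. The triple treatment gave 4, 2 with a pseudocount of 0.1 or the filter at 5 FPKM, 0 without a filter, with the depth covariate or with 1 value per mouse code, and 0 to 5 with 1 library left out. The mean of the treated groups gave 4, 2 with the filter at 5 FPKM, 0 with 1 value per mouse code, and 0 to 4 with 1 library left out. Paclitaxel added gave 4, 1 without a filter, 0 with 1 value per mouse code, and 1 to 4 with 1 library left out. Anti-PD-L1 added gave 1, 2 under quantile normalisation, 0 without a filter, with the depth covariate or with 1 value per mouse code, and 0 to 2 with 1 library left out. In CD45-positive cells, JQ1 with paclitaxel gave 3, 1 with the filter at 5 FPKM or without the trend, 0 without a filter, with the depth covariate or with 1 value per mouse code, 4 with only the groups compared, and 0 to 4 with 1 library left out, and the mean of the treated groups gave 0, and 0 to 2 with 1 library left out. Under the filter at 5 FPKM only 4 CD45-negative and 5 CD45-positive members were tested, so fewer could be called, and without 1 vehicle library CNN1 was not tested. Of 20 called member results in CD45-negative cells, 20 passed with a pseudocount of 5, 19 with upper quartile scaling or without the trend, 17 under quantile normalisation and 14 with a pseudocount of 0.1, and of 3 in CD45-positive cells 2 passed with a pseudocount of 0.1. With 1 value per mouse code 3 of the 20 passed, but the vehicle arm is then 1 value, and 1 of the 3 is CNN1, which had to differ. For the other changes of count the cause was not tested. No paired analysis was possible because, within a fraction, the treatment groups share no tumours and replicate numbers were given in accession order; the 2 fractions of a tumour could be set side by side but come from separately normalised tables and were not tested. The read depth behind a value is unknown beyond the relative steps, so values under about 1 FPKM (CNN1, ACTG2, MYH11) carry no interval.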
